A study of Arabidopsis thaliana with 12 samples.

Results

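Transcripts of 4 chloroplast enzymes were followed in wild-type Arabidopsis thaliana, ecotype Columbia 0: PRK (AT1G32060), SBPASE (AT3G55800), CHLM (AT4G25080) and CHLP (AT1G74470). They were chosen by locus, as genes of the Calvin cycle or of chlorophyll synthesis that have an array probe naming them and no other gene. They are 4 of the 689 genes of the series with such a probe, each has 1 probe, and all 4 probes were above 0 on every array. Total RNA was hybridized on 12 arrays. The 6 control arrays carried RNA of plants grown at 20 °C in medium light. The 6 recovered arrays carried RNA of plants of the same genotype and light that had spent 24 h at 4 °C, which the labels call photoinhibitory, followed by 24 h of recovery at 20 °C. No group was sampled at the end of the cold, so an effect of the cold that persisted and an effect of the recovery cannot be told apart. The labels name neither the tissue nor the plants or cultures behind the replicates, so p-values reflect only how far these samples spread, and that spread may be technical.

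The Calvin cycle fixes CO2 in the chloroplast stroma, and most of its reactions regenerate the sugar phosphate that accepts CO2. SBPASE encodes sedoheptulose bisphosphatase, which commits carbon to this regeneration, and PRK encodes phosphoribulokinase, which makes the acceptor itself, ribulose bisphosphate. Both enzymes are switched on in the light when the chloroplast thioredoxin system reduces their disulphides. Chlorophyll is made in the same organelle from a porphyrin ring and an isoprenoid tail. CHLM encodes the methyltransferase that acts on magnesium protoporphyrin IX early in the magnesium branch, and CHLP encodes the geranylgeranyl reductase that makes the phytyl chain used for chlorophyll and for tocopherols.

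The arrays of both groups differed in the shape of their intensity distribution, which bears on every value that follows. Each array holds 3439 probes with intensities in arbitrary units from 0 to 100, and array totals ran from 3627 to 3745 in control and from 3153 to 3267 in recovered samples. The median spot averaged 0.556 ± 0.0159 over the controls and 0.108 ± 0.0142 over the recovered arrays (SD, n = 6 each), while the 95th percentile was 2.87 ± 0.0474 and 2.94 ± 0.103. The 99th percentile ran from 8.42 to 8.95 on control arrays and from 12.2 to 13.4 on recovered arrays. A probe of middle brightness with equal intensities in both groups could therefore rank much higher on the recovered arrays. Such a probe could rank alike near the 95th percentile, and lower on the recovered arrays if it was brighter still. The 4 genes were accordingly compared in deposited intensity, in percentile rank among the 3439 probes of the same array, in log2 intensity after scaling between arrays, and as ratios to one another within an array. In all of these, fewer cells with a transcript and less transcript per cell cannot be told apart. The control samples with consecutive numbers (1 and 2, 3 and 4, 5 and 6) resembled each other more than other control samples did. Results with such samples averaged are therefore given for genes called in deposited or quantile-normalized values. They are also given for the rank of PRK and for ratios among the 4 genes. They are not given for ratios to other genes, other ranks or other scalings.

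In deposited intensity, SBPASE and CHLM were lower after recovery, and PRK and CHLP stayed near their control levels. PRK lay between 0.508 and 1.03 in control samples, with a median of 0.808, and between 0.668 and 0.854 in recovered samples, with a median of 0.762. The recovered samples thus fell inside the range of the control samples, and control samples 1 (0.508) and 2 (0.576) were the lowest of all 12. SBPASE lay between 0.954 and 1.13 in control samples (median 1.06) and between 0.360 and 0.477 after recovery (median 0.418). Every recovered sample was below every control sample.

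CHLP was at 2.37 to 3.07 in control samples (median 2.55) and at 2.63 to 3.09 in recovered samples (median 2.85). Its groups overlapped, and control samples 1 (3.07) and 2 (2.86), the lowest for PRK, were here the highest controls. CHLM was at 0.719 to 0.914 in control samples (median 0.807) and at 0.188 to 0.319 in recovered samples (median 0.274). Its groups did not overlap, and recovered samples 1 (0.188) and 2 (0.319) were the lowest and the highest of the recovered samples although their numbers are consecutive.

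**Figure D1:**
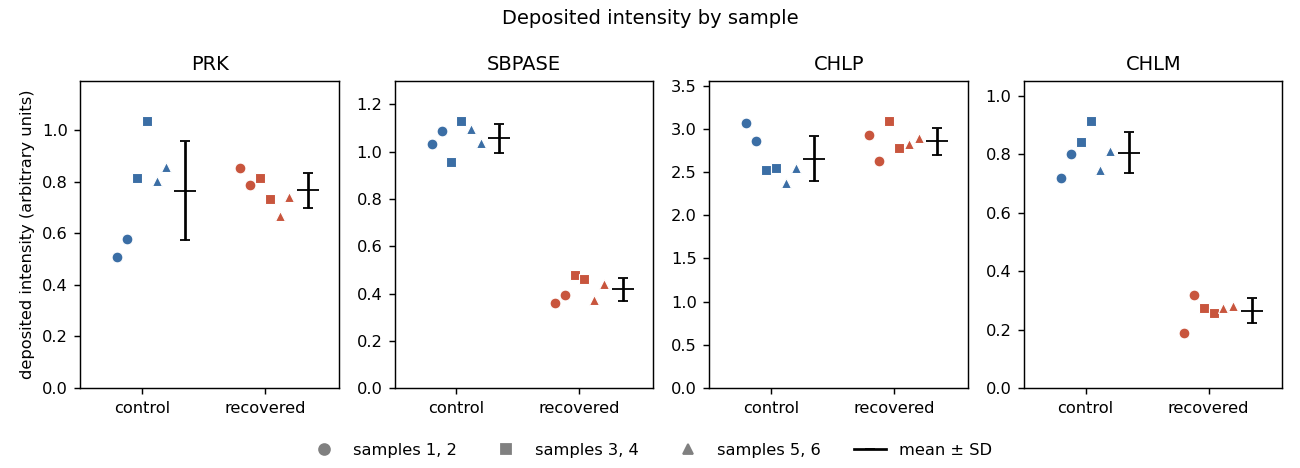
Deposited intensity (vertical axis, arbitrary units, from 0) of PRK, SBPASE, CHLP and CHLM in 6 control and 6 recovered samples; each point is 1 array, its shape gives the consecutive sample numbers, and black marks are the mean ± SD. SBPASE and CHLM separate into a high control and a low recovered group, while the recovered samples of PRK and CHLP lie within or close to the range of the controls.

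Across all 2409 probes above 0 on every array, limma on the deposited log2 intensities called SBPASE lower, at -1.34 (SE 0.10, adjusted p = 1.01e-07), and likewise CHLM, at -1.61 (SE 0.127, adjusted p = 1.59e-07). With consecutive samples averaged, limma gave adjusted p-values of 0.000401 for SBPASE and 0.000176 for CHLM. PRK was at 0.04 (SE 0.166, adjusted p = 0.831) and CHLP at 0.11 (SE 0.0922, adjusted p = 0.272), with 95% intervals from -0.32 to 0.40 and from -0.09 to 0.31. The 2 lower calls among 4 genes stand against 75.5% of all tested probes called lower in these values. Groups that did not overlap, with recovered samples lower, were likewise found for SBPASE and CHLM and for 66.5% of the tested probes. The median tested probe had a log2 difference of -1.58, so SBPASE and CHLM moved about as the typical probe of these arrays did, and PRK and CHLP stood above it.

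Within-array rank separated PRK from the other 3 genes. PRK stood at a percentile rank of 48.0 to 75.8 in control samples (median 66.6) and of 85.8 to 87.8 in recovered samples (median 86.6). Every recovered sample ranked above every control sample, and the recovered samples lay within a far narrower band. The mean rank rose by 23.6 percentile points, from 63.1 ± 10.5 to 86.7 ± 0.674 (SD, n = 6 each). In an exact two-sided permutation test PRK reached the lowest p possible with groups of 6, p = 0.00216, and an adjusted p = 0.00434 over all 3439 probes. Higher ranks passed this test for 38.1% of all probes, and the groups did not overlap, with recovered samples higher, for 29.6%. The median absolute rank difference of all probes was 13.7 points. Without control samples 1 and 2 the rise of PRK was 17.2 points (exact permutation, adjusted p = 0.0118), and with consecutive samples averaged limma gave an adjusted p of 0.0225.

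SBPASE ranked at 77.1 ± 2.15 on control and 79.4 ± 2.06 on recovered arrays (exact permutation p = 0.108, adjusted p = 0.144). Although its intensity fell, its mean place among the probes of an array thus differed by 2.26 points, close to the SD within either group. CHLP ranked at 94.4 ± 0.660 and 94.9 ± 0.160 (exact permutation p = 0.0758, adjusted p = 0.104), and it passed without control sample 1 (rank difference 0.725, adjusted p = 0.0234). CHLM ranked at 66.7 ± 3.39 and 71.8 ± 4.49 (exact permutation p = 0.0519, adjusted p = 0.0744). When only the 2409 probes above 0 on every array were ranked, the rank differences of SBPASE and CHLM shrank to 0.643 and 2.63 points, and neither passed. Recovered sample 1 stood apart for CHLM, at a rank of 62.7 against 73.0 to 74.5 in the other recovered samples. Without it the mean rank of CHLM was 6.97 points higher after recovery (exact permutation, adjusted p = 0.00856).

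**Figure D2:**
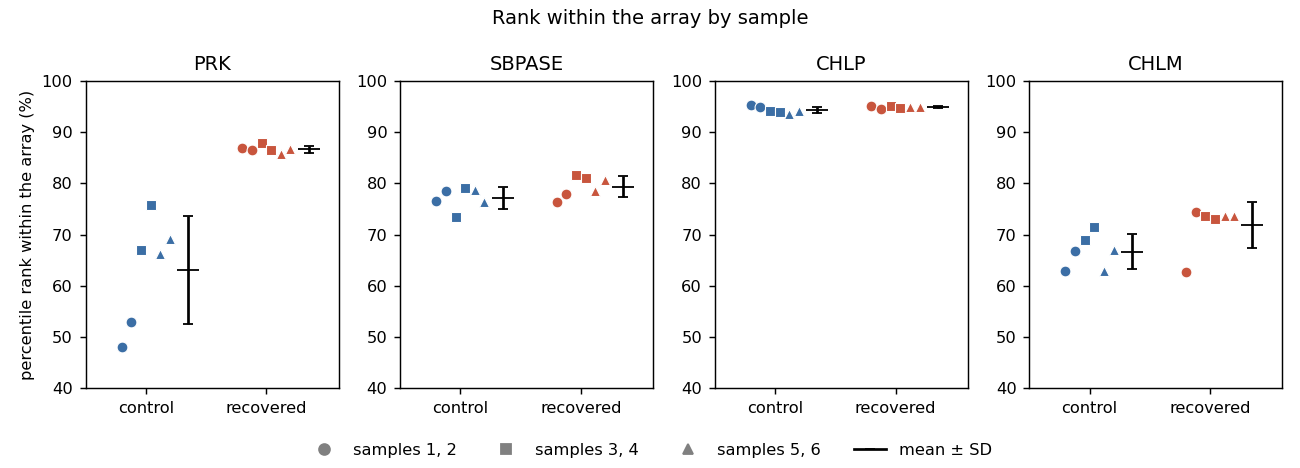
Percentile rank within the array (vertical axis, percent, from 40 to 100) of the 4 genes among 3439 probes; each point is 1 array, shapes give the consecutive sample numbers, and black marks are the mean ± SD. The recovered samples of PRK cluster at 85.8 to 87.8, above all controls, and 1 recovered sample of CHLM lies at 62.7, apart from the other 5.

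**Figure D3:**
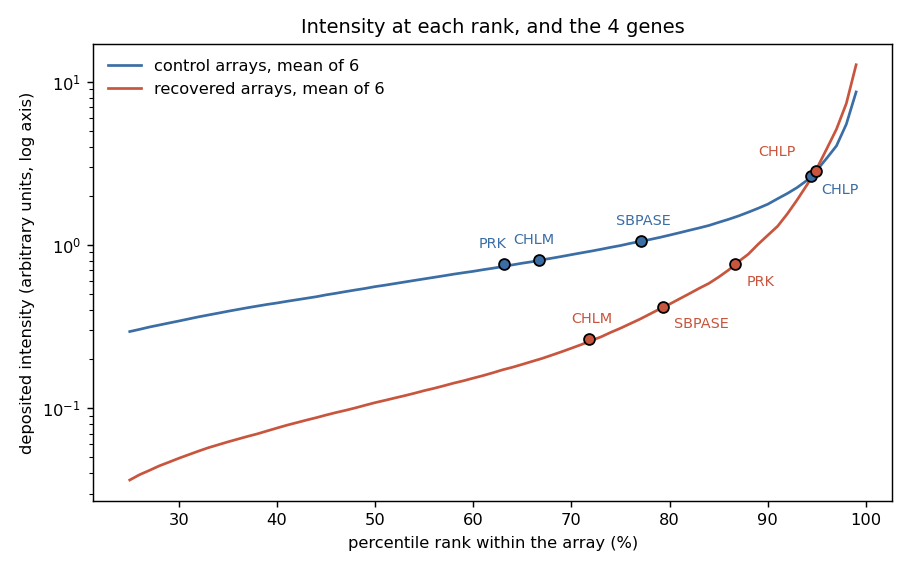
Mean deposited intensity (vertical log axis, arbitrary units) at each percentile rank of the array (horizontal axis) for control and recovered arrays, with the mean position of each gene in each group. The curves meet near the rank of CHLP and lie far apart at the ranks of the other genes; PRK moves sideways between the curves at an equal intensity, and SBPASE and CHLM drop from the upper to the lower curve.

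After quantile normalization, which gives every array the same intensity distribution, PRK was the 1 gene of the 4 that passed, with a log2 difference of 1.39 (95% interval 0.98 to 1.79). For higher calls the share of all tested probes was 37.5%, and with consecutive samples averaged, where PRK also passed, it was 28.8%. SBPASE had a 95% interval of -0.19 to 0.27, CHLP of -0.12 to 0.33 and CHLM of -0.17 to 0.40. Differences within these bounds thus remain possible for them.

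Other scalings kept PRK at the top of the 4 or close to it, and moved the other 3 genes across 0. Cyclic loess, which removes intensity-dependent differences between arrays, gave PRK 0.96 (SE 0.163, adjusted p = 0.000271) and called none of the other 3; higher calls made up 31.6% of probes. Median centring, which shifts each array by a constant on the log2 scale, called PRK (1.97), CHLP (2.04) and SBPASE (0.59) higher, against 45.0% of probes, and left CHLM at 0.31 (adjusted p = 0.0681). When a constant of 0.428 to 0.459 intensity units was added to each recovered array, to bring its median spot to the control level, PRK (0.71, adjusted p = 0.000666) and CHLP (0.32, adjusted p = 0.000862) were called higher, as were 47.9% of probes. In that setting SBPASE (-0.29, adjusted p = 0.000934) and CHLM (-0.18, adjusted p = 0.0370) were called lower, as were 28.7% of probes. The constant was chosen after the data were seen. PRK was thus called higher in 4 of these 5 scalings and had no detectable difference in the deposited values.

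**Figure D4:**
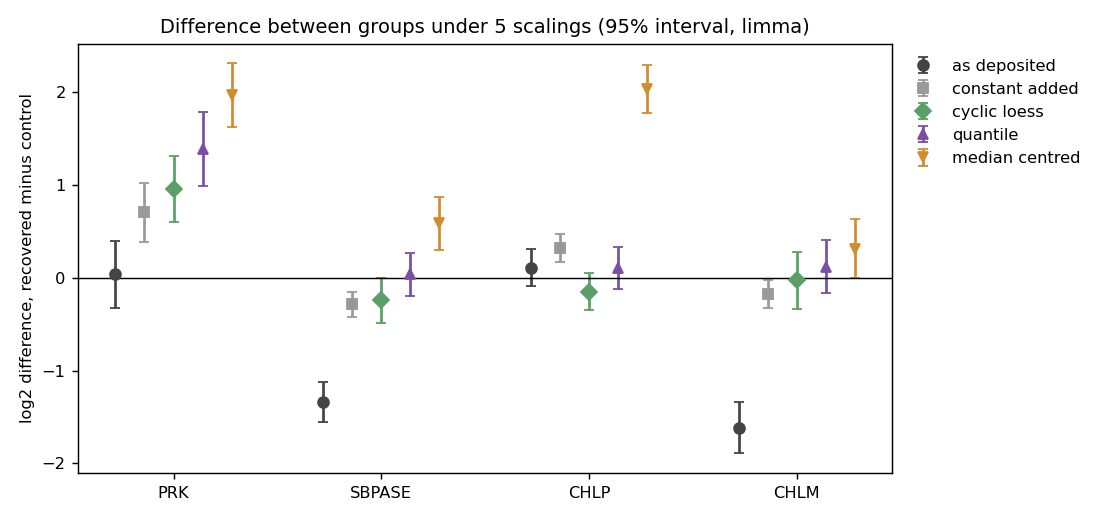
Log2 difference between recovered and control samples (vertical axis) for the 4 genes under 5 scalings; points are limma estimates and bars their 95% intervals, from 6 samples a group. PRK lies above 0 in all scalings but the deposited values, where its interval spans 0, while SBPASE and CHLM run from below -1 as deposited to above 0 after median centring.

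A ratio of 2 probes on the same array is free of any constant factor applied to that array, and shows whether both changed unequally, not which of them changed. Of the 6 ratios among the 4 genes, 4 passed, and each of these set PRK or CHLP against SBPASE or CHLM, so that each side held 1 gene of each pathway. The log2 ratio of PRK to SBPASE, both Calvin cycle enzymes, ran from -1.02 to -0.13 in control samples (median -0.37) and from 0.66 to 1.24 in recovered samples (median 0.80). Every recovered sample lay above every control sample, and the ratio was 2.60-fold higher after recovery. The log2 ratio of CHLP to CHLM, both chlorophyll synthesis enzymes, ran from 1.48 to 2.09 in control samples (median 1.66) and from 3.04 to 3.96 in recovered samples (median 3.40). Here too the groups did not overlap, and the ratio was 3.31-fold higher.

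Across the pathways, the ratio of PRK to CHLM was 3.14-fold higher after recovery and that of CHLP to SBPASE 2.73-fold higher, both again without overlap. Each of these 4 ratios had an exact two-sided permutation p = 0.00216 and an adjusted p = 0.00402 over all 2900436 pairs of tested probes. With consecutive samples averaged, limma gave the 4 ratios adjusted p-values from 0.000421 to 0.00458. Of all pairs, 69.4% passed the same test, so 4 called ratios of 6 are near the share for any 2 probes of these arrays. The share of all pairs whose groups do not overlap is not given here, so the lack of overlap cannot be called particular to these 4 ratios. The other 2 ratios did not pass. That of PRK to CHLP differed by -0.07 on the log2 scale (exact permutation p = 0.755, adjusted p = 0.793), although without control samples 1 and 2 it differed by -0.38 (adjusted p = 0.0110). That of SBPASE to CHLM differed by 0.27 (exact permutation p = 0.0433, adjusted p = 0.0612), and without recovered sample 2 by 0.35 (adjusted p = 0.0174).

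These ratios held unequally across scalings that change the shape of the intensity distribution. PRK to SBPASE was higher in all 25 alternatives that were run, with log2 differences from 0.99 to 1.54. PRK to CHLM was higher in all 25, from 0.88 to 1.75. Of these, 12 left out 1 sample and 6 a pair. The replicate block and averaging consecutive samples leave the difference as it is by design. The ratios themselves changed only with quantile normalization, cyclic loess, 0.1 added to both intensities, or the constant. In that order PRK to SBPASE differed by 1.35, 1.20, 1.19 and 0.99. PRK to CHLM differed by 1.27, 0.98, 1.34 and 0.88. CHLP to CHLM dropped to -0.01 after quantile normalization (adjusted p = 0.954) and to -0.12 after cyclic loess (adjusted p = 0.533), and SBPASE to CHLP shrank to -0.07 and -0.10 (adjusted p = 0.603 and 0.482). PRK to CHLP turned to 1.28 and 1.11 in the same settings (adjusted p = 0.00473 and 0.00518). With the constant added to the recovered arrays, both CHLP ratios still passed, at 0.50 for CHLP to CHLM and -0.61 for SBPASE to CHLP (adjusted p = 0.00688 and 0.00363). PRK thus kept its higher ratio to SBPASE and to CHLM in each of these settings, and CHLP kept its own with the constant but not after quantile normalization or cyclic loess.

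**Figure D5:**
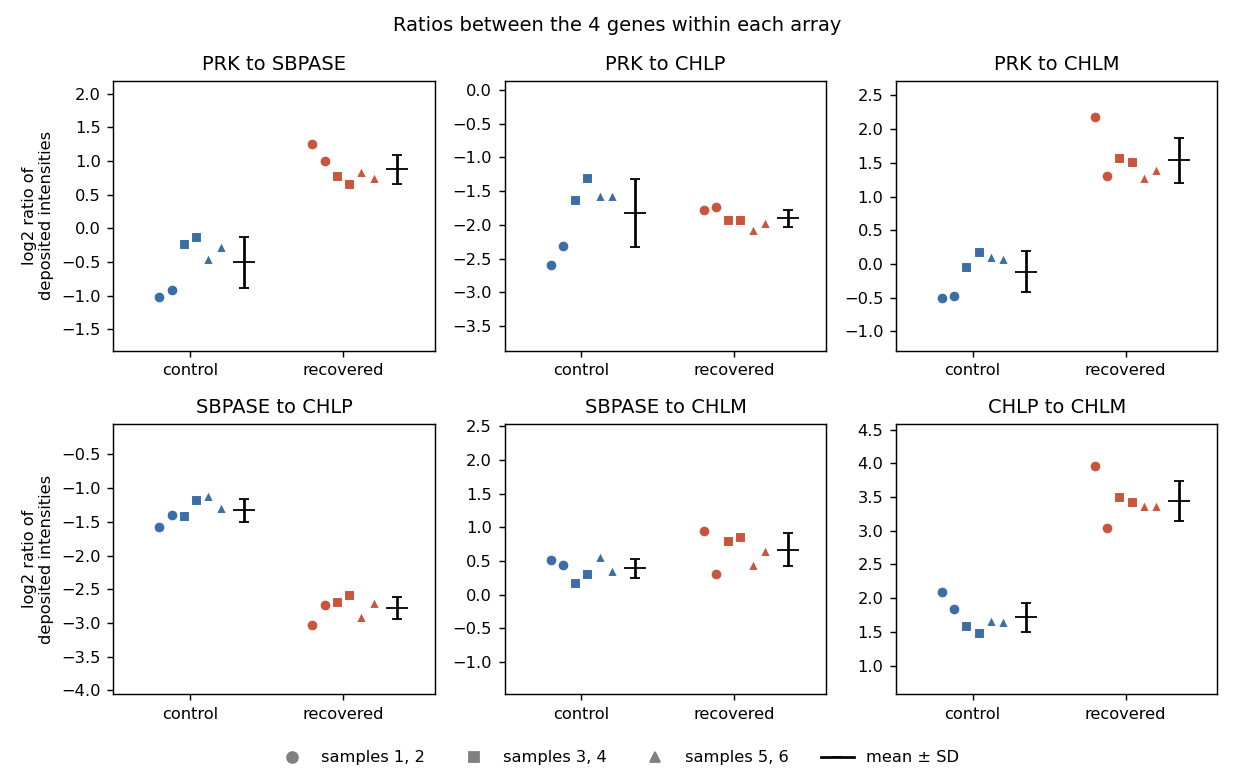
Log2 ratio of deposited intensities of 2 genes on the same array (vertical axis, each panel spanning 4 log2 units) for the 6 pairs among the 4 genes; each point is 1 array, shapes give the consecutive sample numbers, and black marks are the mean ± SD. The groups are apart in 4 panels and overlap for PRK to CHLP and for SBPASE to CHLM.

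The same test against all other tested probes placed the 4 genes among the array as a whole. Of 2408 other probes, the ratio of PRK was higher after recovery against 1767 and lower against 168. For CHLP the counts were 1832 and 191. SBPASE stood higher against 986 and lower against 783, and CHLM against 800 and 896. PRK and CHLP were thus above most probes of the array in their deposited change, and SBPASE and CHLM near its middle.

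Against 5 photosystem and antenna genes, ratios in the deposited values of all 4 enzymes were lower after recovery for 4 of them, namely PSBW and PSBY of photosystem II, PSAN of photosystem I and the light-harvesting protein LHCB1.5. The log2 differences were -0.71 to -0.92 for PRK, -0.63 to -0.85 for CHLP, -2.08 to -2.30 for SBPASE and -2.36 to -2.58 for CHLM (exact permutation, adjusted p at most 0.0325). As deposited, 69.4% of all pairs of tested probes passed this test in either direction. The shares of all pairs in the other settings below are not given here. Mean percentile ranks in control and recovered samples were 99.7 and 99.6 for PSBW and 99.4 in both for LHCB1.5. The 99th percentile of the array was itself brighter after recovery, averaging 8.65 in control and 12.7 in recovered samples. Mean ranks of the other 2 genes lay below it. Those ranks were 96.1 and 97.4 for PSAN, and 87.3 and 94.8 for PSBY. Only against PSB27, a photosystem II assembly factor, did ratios point upward, by 2.04 for PRK and 2.11 for CHLP (adjusted p = 0.00402 and 0.0143), with 0.66 for SBPASE and 0.38 for CHLM not passing (adjusted p = 0.275 and 0.529). Control samples 1 and 2 held far less PSB27 (1.30 and 1.19) than the other controls (5.02 to 7.30), and the part of this in the result was not tested. Against 4 plastid ribosomal protein genes, PRK and CHLP were higher for PRPS10, PRPL17 and PRPL5 (0.53 to 1.43 and 0.61 to 1.5), and not for PRPS6 (-0.23 and -0.16, adjusted p = 0.363 and 0.421). SBPASE and CHLM were lower relative to PRPS6 (-1.61 and -1.89) and PRPS10 (-0.85 and -1.12), and did not pass against PRPL17 or PRPL5. Several of these directions depended on the scaling, in alternatives chosen after seeing the data. After quantile normalization the ratio of PRK turned higher against PSBW (1.59), LHCB1.5 (1.44) and PSAN (0.92, adjusted p = 0.00877) and was at 0.13 against PSBY (adjusted p = 0.688), and after cyclic loess the same 3 ratios were higher. With the constant added, none of these 4 ratios of PRK passed. SBPASE, CHLP and CHLM were still lower against PSBY and PSAN in all 3 of these settings, and lower against PSBW and LHCB1.5 with the constant only. CHLP was higher against PSBW after quantile normalization (0.30, adjusted p = 0.0292). The ratio of PRK to PSB27 stayed higher in all 3 settings (2.11 to 2.95). That of CHLP to PSB27 passed after cyclic loess and with the constant, and not after quantile normalization (1.67, adjusted p = 0.0885). SBPASE and CHLM passed as higher against PSB27 after cyclic loess only (1.74 and 1.96, adjusted p = 0.0347 and 0.0174). Against PRPL17 and PRPL5 the ratio of PRK was higher in all 3, while against PRPS10 it turned to -0.63 after cyclic loess (adjusted p = 0.0313) and against PRPS6 it was lower in all 3, from -1.59 to -1.23. CHLP kept its higher ratio to PRPL17 in all 3 and did not pass against PRPL5. It turned lower against PRPS10 (-1.73 to -0.62) and passed as lower against PRPS6 in all 3 (-2.69 to -1.72). SBPASE and CHLM stayed lower against PRPS6 and PRPS10 in all 3, and CHLM passed as higher against PRPL17 after cyclic loess (0.51, adjusted p = 0.0414).

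Few other genes of the pathways could be read. Of 25 Calvin cycle genes, PRK and SBPASE had a probe of their own, 1 gene shared its probe with other genes and 22 were named by no probe used here. Of 45 genes of tetrapyrrole and chlorophyll metabolism, 3 had a probe of their own, 4 shared theirs and 38 were named by none. Besides CHLM and CHLP this was HEMA3, a gene for the glutamyl-tRNA reductase that opens the pathway. HEMA3 had intensities of 1.03 to 1.41 in control and 0.304 to 0.400 in recovered samples. Its groups did not overlap, as was so for 66.5% of tested probes with recovered samples lower. It was called lower after quantile normalization (log2 difference -0.48, SE 0.141, adjusted p = 0.00942), as were 31.1% of probes. Averaging consecutive samples ended this call (adjusted p = 0.105), as did median centring, where HEMA3 was at 0.09 (adjusted p = 0.577). The limma call held after cyclic loess (-0.70, adjusted p = 0.000405), where 775 of 2409 probes were called lower. It also held with the added constant (-0.62, adjusted p = 1.51e-05) and as deposited (-1.84, adjusted p = 2.22e-08, with consecutive samples averaged 0.000175), beside 28.7% and 75.5% of probes. With consecutive samples as a random block limma gave an adjusted p of 0.0298. The rank difference of HEMA3, -4.85 points, did not pass (exact permutation, adjusted p = 0.0577).

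Of 9 genes of the chloroplast thioredoxin system 2 had a probe of their own. FTRB (AT2G04700) is the catalytic subunit of the ferredoxin-thioredoxin reductase that passes electrons from ferredoxin to thioredoxins. It was called higher by 1.46 on the log2 scale after quantile normalization (limma, SE 0.175, adjusted p = 1.13e-05, with consecutive samples averaged 0.00374). Its percentile rank rose from 38.6 ± 9.60 to 75.1 ± 3.03 (exact permutation, adjusted p = 0.00434), while its deposited intensity was 0.427 ± 0.111 in control and 0.321 ± 0.0515 in recovered samples (log2 difference -0.38, adjusted p = 0.0752). NTRC, the NADPH-dependent reductase with a thioredoxin domain, went from 0.620 ± 0.0971 to 0.176 ± 0.0297 in deposited intensity and did not pass after quantile normalization (log2 difference 0.17, adjusted p = 0.303). Its rank rose by 9.0 points (exact permutation, adjusted p = 0.0341). Higher ranks passed this test for 38.1% of all probes, and the median absolute rank difference of all probes was 13.7 points. In the deposited values 75.5% of tested probes were called lower. Of 15 genes of isoprenoid, phytol and tocopherol synthesis, VTE6 (AT1G78620), the phytyl-phosphate kinase that recycles phytol, was the single gene measured. VTE6 had an intensity of 0.262 ± 0.0998 on control and 0.303 ± 0.0685 on recovered arrays. Its log2 difference of 2.25 after quantile normalization (limma, SE 0.221, adjusted p = 1.90e-06, with consecutive samples averaged 0.00144) was 0.26 as deposited (adjusted p = 0.330). Of the 4 lists together, 3 of 8 measured genes were called higher after quantile normalization (PRK, FTRB and VTE6), 1 lower and 4 did not pass, beside 37.5% and 31.1% of all probes.

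The genes whose pattern over the 12 samples was most like that of each enzyme were ranked by Pearson correlation of quantile-normalized log2 intensity among 462 probes that name a single gene. For PRK they were FTRB (r = 0.971), MAMI, which encodes a membrane-associated mannitol-induced protein (r = 0.968), and AT2G38950 (r = 0.965). FTRB shared with PRK its low values in control samples 1 (0.275) and 2 (0.304), against 0.460 to 0.538 in the other controls. SBPASE and CHLM had the same 2 genes at the head of their lists, AT5G03900 (r = 0.649 and 0.804) and AT4G19430 (r = 0.513 and 0.712), followed by AT4G14050 for SBPASE (r = 0.482) and AT2G28390 for CHLM (r = 0.708). For CHLP they were AT3G09050 (r = 0.769), AT1G21660 (r = 0.733) and AT1G50880 (r = 0.708). These correlations describe 12 arrays that fall into 2 groups, and the probes of an array share its hybridization and its scaling. None of 15 markers of flower, seed, root or senescing tissue had a probe of its own, so the tissue was not checked.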

How the data were processed

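The deposited values are linear intensities, 1 for each probe on each array. The sources used here do not state how the authors corrected the background, scaled the arrays or set values to 0, and 8.89% of values are exactly 0. Zeros numbered 154 to 162 on each control array and 388 to 564 on each recovered array. The filter to probes above 0 on every array therefore did not act equally on both groups. Shares given for tested probes or their pairs hold for that selected set. Precision is limited by how many arrays there are. The platform annotation names 1 gene for 692 probes, several for 870 and none for 1877, and TAIR10.1 loci were found for 690 of the 692. The 4 genes, the lists, the genes compared and the tests were chosen with earlier results of these data known.

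The 2409 probes above 0 on every array were log2-transformed without a pseudocount, quantile normalized and tested with limma 3.58.1 in R 4.3.3 (two-sided, Benjamini-Hochberg over all of them, threshold 0.05, recovered minus control). Percentile ranks (3439 probes, ties averaged) and log2 ratios were compared with exact two-sided permutation tests, adjusted over all probes or all pairs of probes, in Python 3.11.15 with numpy 2.4.6. The code was tested on simulated data. Named genes are the 4 enzymes, every measured gene of 4 pathway lists, 9 photosystem, antenna and plastid ribosomal genes, and the 3 genes most alike to each enzyme. Deviations of same-numbered samples of both groups correlated at -0.0256 to 0.102, so they were not treated as pairs. In control samples deviations correlated at 0.813 to 0.927 between consecutive numbers and at -0.665 to -0.112 otherwise. In recovered samples they correlated at -0.115 to 0.00921 between consecutive numbers and at -0.279 to -0.187 otherwise. Averaging and the random block nevertheless treated both groups alike, the block with a single consensus correlation of 0.624. Alternatives covered scaling, filters, offsets, consecutive samples averaged or as a block, the replicate block, and samples or pairs of samples left out.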

Additional observations from a re-analysis of the deposited data

Results flagged for a closer look

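A sample far from the other 5 of its group was looked for in 28 sets of values and found in 2, against about 1.4 by chance. Both concern CHLM in recovered sample 1. Its percentile rank there was 62.7 against 73.0 to 74.5 in the other recovered samples, and the log2 ratio of PRK to CHLM was 2.18 against 1.28 to 1.57. Recovered sample 2, its consecutive number, had a CHLM rank of 74.5.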

How the results depend on the processing

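Of 344 recomputed values with a test, 306 kept their direction and their side of the threshold, 19 newly passed, 7 no longer passed and 12 turned direction without passing either way. Direction turned in 22 values in all, which include some of those that newly passed or no longer passed. As deposited, with consecutive samples averaged or not, log2 differences were 0.038 for PRK, -1.34 for SBPASE and -1.61 for CHLM. Median centring gave SBPASE 0.59 and CHLP 2.04, cyclic loess SBPASE -0.24, CHLP -0.15 and CHLM -0.024, and the added constant SBPASE -0.29, CHLP 0.32 and CHLM -0.18. Leaving out 1 sample gave SBPASE -0.0097 to 0.078, and its value was -0.036 without recovered samples 3 and 4. CHLP was at 0.23 without control samples 1 and 2 (adjusted p = 0.0395). Without the dimmer 50% of probes 947 were called, since fewer were tested, against 1653.

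Rank differences without 1 sample ran from 0.370 to 0.725 for CHLP and from 4.38 to 6.97 for CHLM. Without control samples 1 and 2 CHLP was at 0.926, and without recovered samples 1 and 2 CHLM was at 6.76, both past the threshold. With the replicate block the rank difference of PRK, 23.6, missed the threshold (exact permutation of signs p = 0.0312, the smallest it can give, adjusted p = 0.0512). The replicate block changed no other call of the 4 genes or their ratios. Averaging consecutive samples leaves rank and ratio differences as they are, and an exact test of 3 against 3 cannot go below 0.1.

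Log2 ratio differences after quantile normalization and cyclic loess were 1.28 and 1.11 for PRK to CHLP, -0.070 and -0.097 for SBPASE to CHLP, -0.083 and -0.22 for SBPASE to CHLM, and -0.012 and -0.12 for CHLP to CHLM. With the added constant PRK to CHLP was at 0.38 and SBPASE to CHLM at -0.11. Without 1 sample PRK to CHLP ran from -0.22 to 0.034 and SBPASE to CHLM from 0.22 to 0.35. PRK to CHLP was at -0.38, 0.11 and 0.058 without control samples 1 and 2, 3 and 4, and 5 and 6, and SBPASE to CHLM at 0.30 without recovered samples 1 and 2. The cause of these shifts was not tested. The unknown background limits every dim probe.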
